A study of Mus musculus with 8 samples.

Results

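The T-box factors of the heart examined here were *Tbx1*, *Tbx2*, *Tbx3*, *Tbx5*, *Tbx18* and *Tbx20*, chosen by name from the table of gene expression. All 6 were found among its 14608 listed genes. RNA-seq was performed on polyA RNA of the outflow tract (OFT), the vessel-like exit of the embryonic heart from which the arterial valves form, of mouse embryos at embryonic day 11.5 (E11.5). The 4 control libraries carried the genotype label Control, and the 4 mutant libraries were labelled Mib1V943F/+ Gata6STOP/+, that is, heterozygous for a missense allele of *Mib1*, the ubiquitin ligase that activates Notch ligands, and for a null allele of the transcription factor *Gata6*. Neither allele is driven by a Cre or a transgene in the sources used here, and the genotype of the controls is given no further. Each library was made from a pool of OFT, for which the sample descriptions give 3 individuals and the study's methods another number, so how many embryos stand behind a library is not known. The methods also state fewer pools per genotype than the 4 libraries listed for each group here.

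T-box factors share a DNA-binding domain, the T-box, and compete for the same short sites in cardiac enhancers. *Tbx5* and *Tbx20* act with *Nkx2-5* and *Gata4* to drive the genes of working chamber muscle, whereas *Tbx2* and *Tbx3* repress those genes in the OFT, the atrioventricular canal and the conduction system. *Tbx1* acts in the second heart field and pharyngeal arches that feed the OFT, and *Tbx18* marks the sinus venosus and the epicardium.

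None of the 6 genes passed the test of a difference between the genotypes over all listed genes, but neither did any other of the 14608 genes. *Tbx5* was lower on average in mutant-labelled pools (fitted fold 0.733 on the log2(CPM + 0.5) scale, n = 4 against 4), and 2 of those pools lay below every control. *Tbx1*, the scarcest of the 6, was higher on average (fitted fold 1.49), with 3 mutant-labelled pools above every control. *Tbx20*, *Tbx2*, *Tbx3* and *Tbx18* had fitted folds between 1.06 and 1.19. The values of the groups overlapped for each of the 6 genes, and they were fully apart for 7.1% of all genes.

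The libraries held between 10669420 reads on listed genes, in control replicate 2, and 30469165, in mutant-labelled replicate 3, so that 1 read was worth between 0.0325 and 0.0948 CPM, the read count scaled to library size in which all values are given. *Gata6* RNA did not separate the groups, with 261.8 ± 18.5 CPM in control-labelled pools and 249.3 ± 36.1 CPM in mutant-labelled pools (SD, n = 4 each), nor did *Mib1* RNA, with 121.8 ± 15.6 and 127.5 ± 6.62 CPM. A missense allele need not alter RNA level, and since *Gata6* RNA gives no check of the labels, the groups are called control-labelled and mutant-labelled. The 20 cardiomyocyte markers, all listed, summed to 33000 to 38430 CPM in the control-labelled libraries and to 26770 to 30740 CPM in the mutant-labelled ones, without overlap. In bulk RNA fewer cells of a type and less RNA per cell cannot be told apart. Over the 8 libraries, markers of cushion mesenchyme (15 of 15 listed) summed to 5094 to 5999 CPM, of smooth muscle (11 of 11) to 2940 to 3766 CPM and of endothelium (16 of 16) to 1103 to 1347 CPM, each with overlapping groups. Those of neural crest, glia and neurons (9 of 15 listed) did not overlap, with 175 to 207 CPM in control-labelled libraries and 133 to 174 CPM in mutant-labelled ones. A sum is weighted to its most abundant markers, however. Of these 9 markers, 5 had a positive and 4 a negative log2 fold change, with a median of 0.01. The defining markers of pharyngeal endoderm were mostly missing from the table, with 2 of 14 listed.

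A read fits 2 family members equally only where their transcripts share a stretch as long as the read, and some of the long identical coding runs between members are shown for that reason. *Tbx1* (chr16:18582931-18582951, minus strand) and *Tbx5* (chr5:119853552-119853572, plus strand) shared 21 bases. *Tbx2* (chr11:85835798-85835817, plus strand) and *Tbx5* (chr5:119844968-119844987, plus strand) shared 20 bases. Of the close relatives, *Tbx2* (chr11:85833431-85833444) and *Tbx3* (chr5:119672334-119672347) shared 14 at most. All coordinates are those of GRCm38, and each run lies within 1 coding exon of either gene.
Tbx1 and Tbx5: CAACCCCTTCGCCAAAGGCTT
Tbx2 and Tbx5: ATCCTGAACTCCATGCACAA
Tbx2 and Tbx3: CTGGAGGCCAAGGA

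Over windows of 60 bases, the length of the reads, 0 windows of any of the 6 genes were found in the transcripts of another gene on the same strand. On the opposite strand, *Tbx3* shared 57 of 6670 windows (0.855%) with its antisense transcript *Tbx3os1*, which the table does not list. *Tbx18* shared 822 of 4658 windows (17.6%) with *D030062O11Rik* and *Gm42514*. The libraries were prepared with a directional kit, and the strand setting of the counting is not given in the sources used here. *D030062O11Rik*, singled out after its values were seen, was counted at 0.721 to 1.62 CPM across the 8 libraries, against 55.5 to 103.8 CPM for *Tbx18*.

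Promoter windows around the gene starts in the RefSeq annotation of GRCm38.p6 were matched by symbol for 3 of the 6 genes, *Tbx1*, *Tbx18* and *Tbx20*. They are shown as the sequence in which sites of T-box, GATA and Notch factors were searched, on both strands, and a match describes the letters only. The motifs were the T-box half-site GGTGTG, which 19% of 32851 promoter windows held, the GATA site GATAA, held by 25.4%, and the site TGGGAA of the Notch partner RBPJ, held by 25.6%. The windows shown are those of *Tbx20*, the most abundant of the 6 (chr9:24774254-24774553, minus strand), of *Tbx18* (chr9:87731211-87731510, minus strand) and of the outer of 2 starts of *Tbx1* (chr16:18590622-18590921, minus strand). Capitals mark the single match, the RBPJ site of *Tbx18*, read here as its reverse complement.
Tbx20: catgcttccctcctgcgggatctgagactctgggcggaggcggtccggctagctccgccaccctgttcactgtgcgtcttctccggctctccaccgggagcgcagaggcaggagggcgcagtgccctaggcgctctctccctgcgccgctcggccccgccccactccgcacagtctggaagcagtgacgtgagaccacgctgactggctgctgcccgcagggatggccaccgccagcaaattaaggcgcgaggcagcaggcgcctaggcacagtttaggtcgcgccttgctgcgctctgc
Tbx18: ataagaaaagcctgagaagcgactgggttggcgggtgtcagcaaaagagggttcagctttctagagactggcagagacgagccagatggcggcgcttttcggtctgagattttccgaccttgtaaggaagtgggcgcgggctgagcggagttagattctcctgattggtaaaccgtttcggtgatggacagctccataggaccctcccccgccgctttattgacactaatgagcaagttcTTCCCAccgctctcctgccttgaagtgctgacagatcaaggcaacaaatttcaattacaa
Tbx1: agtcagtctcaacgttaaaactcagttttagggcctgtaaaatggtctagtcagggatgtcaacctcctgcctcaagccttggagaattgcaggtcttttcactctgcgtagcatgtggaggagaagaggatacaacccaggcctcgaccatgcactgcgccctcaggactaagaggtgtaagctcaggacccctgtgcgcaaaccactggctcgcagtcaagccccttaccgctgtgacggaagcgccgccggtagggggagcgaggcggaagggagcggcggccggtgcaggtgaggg

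The window of *Tbx20* had a GC content of 68.3% and that of *Tbx18* 51.7%, against a median of 52.7% over all windows. The *Tbx18* window lies inside the gene model of *D030062O11Rik*, which runs the other way.

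The levels of the 6 genes were set side by side per length, as CPM per kilobase (kb) of each gene's exons joined. *Tbx20* led in all 8 libraries with 52.92 ± 4.93 CPM per kb (SD over 8 libraries), from 44.5 in control replicate 3 to 59.2 in mutant-labelled replicate 4. *Tbx18* followed with 15.2 ± 3.31, *Tbx2* with 8.81 ± 1.45, *Tbx5* with 3.21 ± 0.974, *Tbx3* with 1.89 ± 0.507 and *Tbx1* with 0.890 ± 0.314 CPM per kb. *Tbx20* alone made up 63.9% of the summed level of the 6 genes and *Tbx1* 1.07%. The order held in each library at every step but 1: *Tbx5* stood above *Tbx3* in 7 of 8 libraries, and below it in mutant-labelled replicate 3. The largest steps were that from *Tbx20* to *Tbx18* (3.49-fold) and that from *Tbx2* to *Tbx5* (2.75-fold), and the smallest that from *Tbx5* to *Tbx3* (1.70-fold). Per kb, *Tbx2* RNA was thus more abundant than *Tbx5* RNA, and *Tbx20* RNA more abundant than both. Levels in bulk RNA do not measure a balance of activation and repression.

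**Figure D1:**
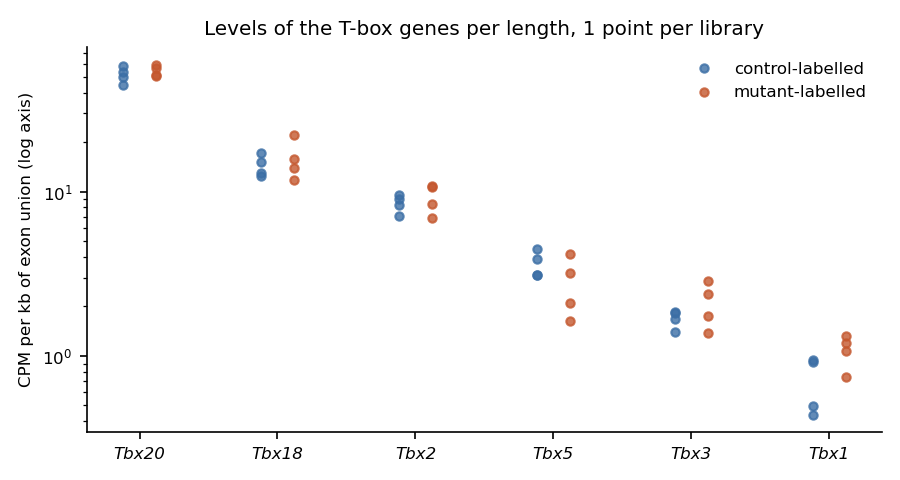
Level of each T-box gene in CPM per kb of joined exons (vertical log axis), 1 point per library, with control-labelled libraries in blue and mutant-labelled libraries in orange. From *Tbx20* at 52.92 CPM per kb on average to *Tbx1* at 0.890, the order of the mean levels is the same in both groups.

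The spread between control-labelled libraries was smallest for *Tbx20*, at a coefficient of variation of 11.2%, and largest for *Tbx1*, at 38.5%. *Tbx20* was counted by 6315 to 20940 reads per library and *Tbx1* by 34 to 129, for which counting alone gives a coefficient of 17.2% in the lowest library. For *Tbx5* the coefficient was 18.1% in control-labelled pools and 40.8% in mutant-labelled pools, for *Tbx3* 12.2% and 31.8%, for *Tbx18* 15.1% and 27.9%, and for *Tbx2* 12.5% and 20.4%. It ran the other way for *Tbx1*, with 38.5% and 22.5%, and for *Tbx20*, with 11.2% and 7.71%. With 153 to 577 reads on *Tbx5*, counting alone gives 8.09% in its lowest library. A difference in spread between the genotypes was not tested.

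The activators are taken first. *Tbx5*, mutated in Holt-Oram syndrome, was measured at 20.8, 14.5, 18.3 and 14.5 CPM in control-labelled replicates 1 to 4, and mutant-labelled replicates 1 to 4 gave 19.5, 7.65, 9.88 and 14.9 CPM. Mutant-labelled replicates 2 and 3 lay below every control, while replicates 1 and 4 lay within the control range. The means were 17.02 ± 3.08 and 12.97 ± 5.30 CPM (SD, n = 4 each), and the log2 fold change in limma, on log2(CPM + 0.5), was -0.45 (SE 0.24, 95% interval -0.96 to 0.07, Benjamini-Hochberg adjusted p = 0.456). The exact permutation test over all relabellings of the libraries gave a two-sided p of 0.257, where 0.0286 is the smallest that 4 against 4 allows. Leaving out mutant-labelled replicate 2 brought the change to -0.23 and leaving out replicate 1 took it to -0.67. Over all alternatives the limma, edgeR or DESeq2 adjusted p ran from 0.278 to 0.753.

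*Tbx20*, needed for chamber growth and valve formation, was counted at 635, 599, 534 and 699 CPM in control-labelled replicates 1 to 4, and the mutant-labelled ones gave 607, 615, 681 and 710.1 CPM. The groups lay almost on top of each other, with mutant-labelled replicate 4 just above the highest control. Its means were 617 ± 68.9 and 653 ± 50.4 CPM (SD, n = 4 each), with a log2 fold change of 0.09 (SE 0.09, limma adjusted p = 0.700, exact permutation p = 0.486). It was the deepest counted of the 6 and had the narrowest 95% interval, -0.11 to 0.28. A correction for GC content took its estimate to -0.0035, and its exons had the lowest GC content of the 6 (42.3%).

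Among the repressors, *Tbx2*, which keeps the OFT and atrioventricular canal from becoming chamber muscle, stood at 25.7, 34.5, 29.9 and 32.6 CPM in control-labelled replicates 1 to 4, and the mutant-labelled ones gave 38.5, 25.02, 39.0 and 30.3 CPM. Mutant-labelled replicates 1 and 3 were above every control and replicate 2 was below every control. Its mean was 30.7 ± 3.84 CPM in control-labelled and 33.2 ± 6.76 CPM in mutant-labelled pools (SD, n = 4 each), for a log2 fold change of 0.10 (SE 0.14, 95% interval -0.21 to 0.40, limma adjusted p = 0.788, exact permutation p = 0.571). Under the GC correction the estimate for *Tbx2* was 0.25, with a limma p of 0.0269 before adjustment. Its adjusted p over all alternatives in limma, edgeR and DESeq2 ran from 0.375 to 0.977.

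*Tbx3*, which maintains the conduction system and has a part in OFT alignment, shared this pattern. It was measured at 9.26, 12.04, 12.3 and 11.2 CPM in control-labelled replicates 1 to 4, and the mutant-labelled ones gave 19.1, 9.13, 15.8 and 11.5 CPM. Again mutant-labelled replicates 1 and 3 were above every control and replicate 2 below. The means of 11.2 ± 1.37 and 13.9 ± 4.42 CPM (SD, n = 4 each) gave a log2 fold change of 0.25 (SE 0.19, 95% interval -0.16 to 0.67, limma adjusted p = 0.583, exact permutation p = 0.371). Without mutant-labelled replicate 1 the change was 0.09, and without replicate 2 it was 0.43.

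*Tbx1*, the gene most often held responsible for the heart defects of DiGeorge syndrome, was found at 3.31, 3.22, 1.73 and 1.54 CPM in control-labelled replicates 1 to 4, and the mutant-labelled ones gave 4.62, 3.79, 4.19 and 2.63 CPM. Only mutant-labelled replicate 4 lay within the control range, the others above it. The means were 2.45 ± 0.946 and 3.81 ± 0.857 CPM (SD, n = 4 each), and all 4 mutant-labelled libraries were above the control mean. The log2 fold change was 0.58 (SE 0.24, 95% interval 0.06 to 1.10), with p = 0.0316 before and 0.388 after Benjamini-Hochberg adjustment in limma, and the exact permutation p was 0.114. Leaving out 1 library at a time kept it between 0.42 and 0.72, with limma adjusted p between 0.341 and 0.636.

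*Tbx18* was measured at 61.5, 58.4, 81.2 and 71.4 CPM in control-labelled replicates 1 to 4, and the mutant-labelled ones gave 55.5, 103.8, 74.5 and 65.4 CPM. A single library stood out at the top, mutant-labelled replicate 2, and replicate 1 of the same group was the lowest of the 8. With means of 68.1 ± 10.3 and 74.8 ± 20.8 CPM (SD, n = 4 each), its log2 fold change was 0.11 (SE 0.16, 95% interval -0.25 to 0.46, limma adjusted p = 0.804, exact permutation p = 0.686). Without mutant-labelled replicate 2 the sign turned, to -0.06. The 11 epicardial markers, all listed, had their highest sum, 547 CPM, in the same library and their lowest, 336 CPM, in mutant-labelled replicate 1, against 350 to 444 CPM in the control-labelled libraries. Their part in the values of *Tbx18* was not tested.

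**Figure D2:**
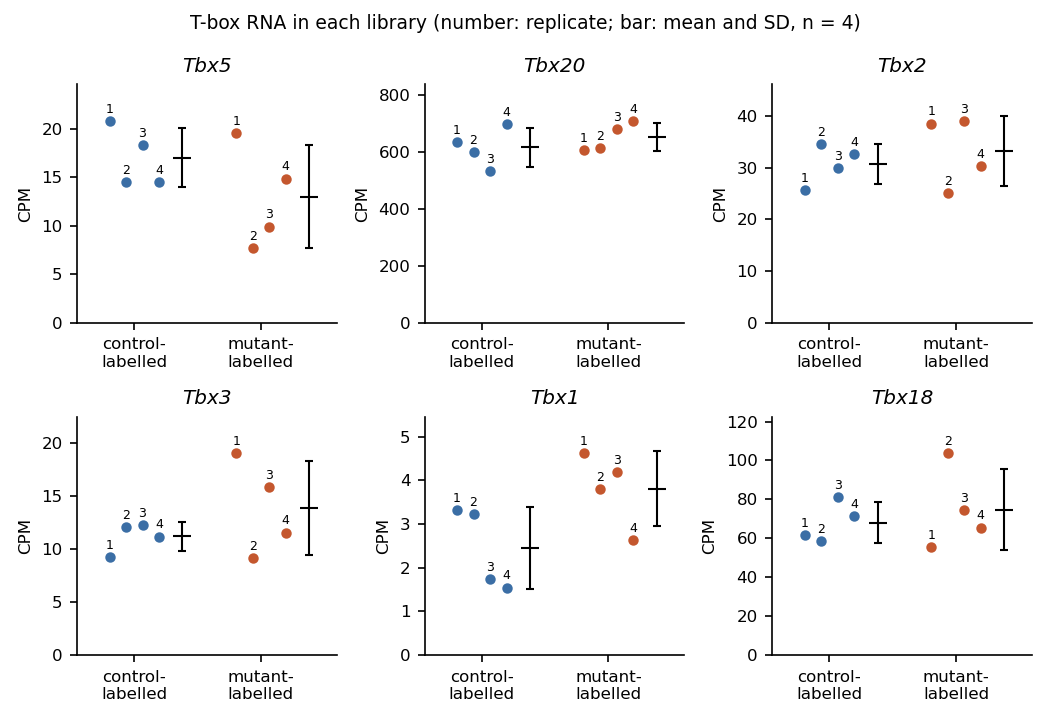
CPM of each T-box gene (vertical axis, from 0, own scale per gene) in the 4 control-labelled (blue) and 4 mutant-labelled (orange) libraries, with the replicate number above each point and the mean and SD (n = 4) beside each group. The groups overlap for all 6 genes, and mutant-labelled replicate 2 is lowest for *Tbx5*, *Tbx2* and *Tbx3* and highest for *Tbx18*.

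In limma, 0 of the 6 genes passed an adjusted p of 0.05, as did 0 of all 14608 genes, a background of 0.0%. At an unadjusted p under 0.05 it was 1 of 6, *Tbx1*, against 12.1% of all genes. On the recovered reads, the edgeR likelihood ratio test called 0 of the 6 against 0.732% of all genes, DESeq2 called 0 against 1.46%, and the quasi-likelihood test of edgeR called none of the 6 and 0 genes in all. The groups were fully apart for 7.1% of all genes and for none of the 6.

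**Figure D3:**
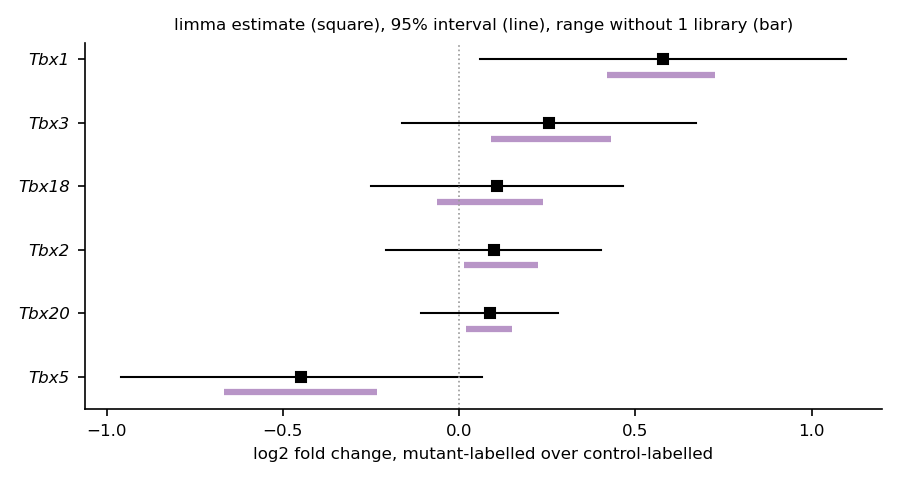
Log2 fold change of each T-box gene, mutant-labelled over control-labelled, from limma on log2(CPM + 0.5) (square) with its 95% interval (black line) and the range over the fits that each leave out 1 library (purple bar). The interval of *Tbx1*, from 0.06 to 1.10, is the only one of the 6 that does not reach 0, and the purple bar of *Tbx18* crosses 0.

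No order of the libraries was shared by the 6 genes. Mutant-labelled replicate 2 was the lowest of the 8 libraries for *Tbx2*, *Tbx3* and *Tbx5* and the highest for *Tbx18*. It also had the lowest sum of the cardiomyocyte markers, 26770 CPM. The erythroid markers (11 of 12 listed) had their highest sum there, 5672 CPM, and their lowest, 1540 CPM, in mutant-labelled replicate 4. The macrophage markers (12 of 12 listed) were also highest in mutant-labelled replicate 2, at 97.9 CPM. The part of these 2 marker sums in the T-box values was not tested. Mutant-labelled replicate 1 was the highest for *Tbx1* and *Tbx3* and the lowest for *Tbx18*. In mutant-labelled replicate 3 the repressors *Tbx2* and *Tbx3* were high and the activator *Tbx5* was low. The part of the cardiomyocyte markers in the values of *Tbx5* and *Tbx20* was not tested.

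The ratio of *Tbx5* to *Tbx3*, per kb, put an activator against a repressor within each library. It was 3.18, 1.71, 2.11 and 1.84 in control-labelled replicates 1 to 4 and 1.45, 1.19, 0.885 and 1.82 in the mutant-labelled ones, so that 3 of the latter lay below every control. For *Tbx5* to *Tbx2* the ratio was 0.443 ± 0.140 in control-labelled and 0.302 ± 0.0997 in mutant-labelled pools (SD, n = 4 each), while *Tbx20* to *Tbx2* was 6.15 ± 1.05 and 6.14 ± 1.31. These ratios were formed after the values were known and are a description.

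*Tbx3* and *Tbx5* lie next to each other on chromosome 5, 147943 bases apart, as *Tbx2* and *Tbx4* do on chromosome 11 (44473 bases). *Tbx4*, best known from the hindlimb and lung, reached at most 2.96 CPM, with a log2 fold change of -0.07 (limma adjusted p = 0.920). Between *Tbx3* and *Tbx5* lies *Gm43050* (chr5:119828448-119831920, minus strand), a long non-coding RNA whose gene starts 747 bases from the start of *Tbx5* and runs away from it. It was counted at 2.70, 2.28, 2.99 and 1.70 CPM in control-labelled replicates 1 to 4, and the mutant-labelled ones gave 1.54, 0.699, 0.845 and 1.49 CPM. All 4 mutant-labelled libraries lay below the lowest control, and replicates 2 and 3 were the lowest, as for *Tbx5*. These values rest on few reads. The mean over the 8 libraries was 1.78 CPM, against 3.13 CPM for *Tbx1*, and 1 read was worth 0.0368 CPM in mutant-labelled replicate 2 and 0.0948 CPM in control replicate 2. The log2 fold change of *Gm43050* was -0.84 (SE 0.23, limma p = 0.00319, adjusted p = 0.254, exact permutation p = 0.0286), so it did not pass the test over all genes. *Rbm19*, on the other side of *Tbx5*, and *Med13l*, beyond *Tbx3*, had log2 fold changes of -0.12 and -0.07 (limma adjusted p = 0.609 and 0.673). The nearest listed genes of the other members had limma adjusted p between 0.402 (*Gm37375*, beside *Tbx18*) and 0.929 (*2610027K06Rik*, beside *Tbx2*).

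The genes whose profile over the 8 libraries came closest to each member were found by the root mean square (RMS) difference of centred log2(CPM + 0.5), among genes that averaged 5 CPM or more. For *Tbx5* they included *Frem1* (RMS difference 0.117) and *Myo16* (0.145), against 0.445 for the spread of *Tbx5* about its own mean. For *Tbx3* they were *Zfp503* (0.121), *D430019H16Rik* (0.145) and *Tbx2* (0.154), so that the closest T-box gene to *Tbx3* was its relative *Tbx2*. *Tbx2* was closest to *Tle3* (0.0678), a Groucho-type co-repressor, and then to *Cacng7* (0.0856) and *Basp1* (0.0900). *Tbx18* lay closest to *Bicc1* (0.0522), *Mlf1* (0.0643) and *Casq2* (0.0732), the cardiac calsequestrin. *Tbx20* was nearest to *Zfp9* (0.0206), *Tgfa* (0.0432) and *Mob4* (0.0453), against 0.128 for its own spread. *Tbx1* had no near neighbour by comparison, with *Kif5c* (0.270), *Amph* (0.272) and *Lrrn3* (0.284) against its own spread of 0.453. At 3.13 CPM on average, *Tbx1* itself lay under the 5 CPM asked of candidates, and the part of its low counts was not tested. With 8 libraries and 11650 or more candidate genes, some genes lie close to any profile.

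The list of chamber genes was drawn up around activation by *Tbx5* and *Tbx20* and repression by *Tbx2* and *Tbx3*, with earlier results known. *Hey1* and *Hey2* are also in the list of upstream factors, and *Hand1* is also among the partners. Whether each gene is a target of any of these factors was not tested. All chamber genes were listed, 29 of 29. At an unadjusted p under 0.05 in limma, 2 were higher and 16 lower in mutant-labelled pools, against 5.45% and 6.62% of all genes, and their median log2 fold change was -0.36 against 0.0011 over all genes. None passed the adjusted threshold in limma, whereas the likelihood ratio test of edgeR called 5 of them lower, among them *Hopx*, *Irx4*, *Kcnj3* and *Mycn*, and DESeq2 called 7 lower, against 0.732% and 1.46% of all genes called in either direction. These genes belong largely to cardiomyocytes, and the cardiomyocyte markers *Myl7*, *Ryr2* and *Pln* are in both lists. The cardiomyocyte markers were lower as well, 17 of 20 at an unadjusted p under 0.05, and their part in the values of the chamber genes was not tested.

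*Nppa*, which encodes atrial natriuretic peptide and is a textbook target of *Tbx5*, was counted at 157, 99.1, 122 and 65.9 CPM in control-labelled replicates 1 to 4, and the mutant-labelled ones gave 61.9, 5.67, 8.68 and 108.7 CPM. It was lowest in mutant-labelled replicates 2 and 3, the libraries that were also lowest for *Tbx5*, while replicate 4 lay inside the control range. Its log2 fold change was -2.09 (SE 0.74, limma p = 0.0155, adjusted p = 0.331, exact permutation p = 0.114). *Gja5*, encoding connexin 40, was at 45.4, 32.5, 41.8 and 22.5 CPM in control-labelled pools 1 to 4 and 30.3, 20.5, 21.4 and 25.5 CPM in mutant-labelled pools 1 to 4, with a log2 fold change of -0.50 (limma adjusted p = 0.364). *Hopx*, *Irx4* and *Mycn* had the smallest p of the list. *Hopx*, a homeodomain-only cofactor, had a mean of 63.6 ± 5.94 CPM in control-labelled and 39.9 ± 6.88 CPM in mutant-labelled pools (SD, n = 4 each, limma adjusted p = 0.124, exact permutation p = 0.0286). *Irx4*, a ventricular homeobox gene, had 46.8 ± 6.33 and 27.6 ± 4.91 CPM, with the same limma adjusted p of 0.124.

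**Figure D4:**
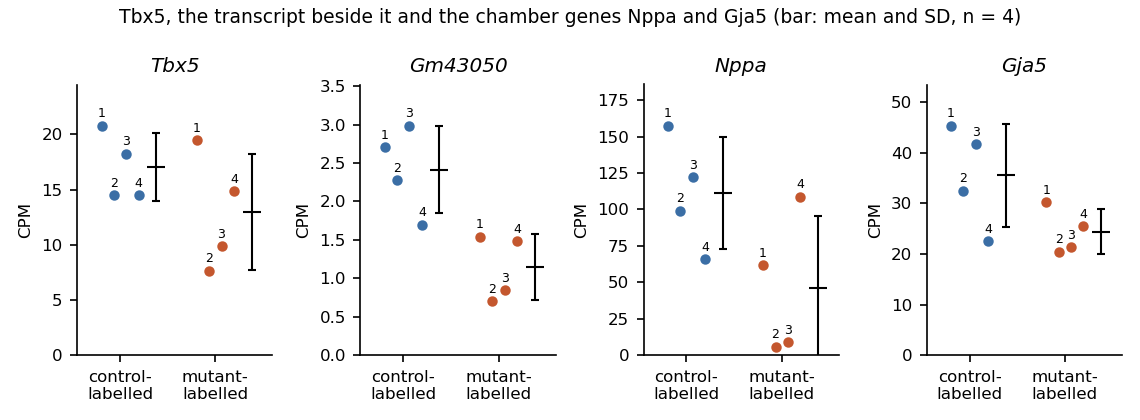
CPM (vertical axes, from 0) of *Tbx5*, of the neighbouring transcript *Gm43050* and of the chamber genes *Nppa* and *Gja5* in the 4 control-labelled (blue) and 4 mutant-labelled (orange) libraries, with replicate numbers, means and SD (n = 4; the lower end of the *Nppa* bar is clipped at 0). Mutant-labelled replicates 2 and 3 are the lowest of the 8 libraries in each panel.

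Of the partner proteins of cardiac T-box factors, 32 of 33 were listed, with 3 higher and 4 lower at an unadjusted p under 0.05, against 5.45% and 6.62% of all genes, and a median log2 fold change of -0.01. *Nkx2-5*, the homeodomain partner of *Tbx5* and *Tbx20*, was at 97.4, 130.3, 109.6 and 92.5 CPM in control-labelled replicates 1 to 4, and the mutant-labelled ones gave 81.9, 65.2, 83.0 and 81.8 CPM. The groups did not overlap, and the log2 fold change was -0.45 (SE 0.11, limma adjusted p = 0.228, exact permutation p = 0.0286). *Gata4*, the zinc finger partner, had 358 ± 41.96 and 329 ± 33.5 CPM (SD, n = 4 each), for a log2 fold change of -0.12 (limma adjusted p = 0.603). *Casz1*, a zinc finger protein that binds *Tbx5*, had 89.3 ± 8.90 and 67.8 ± 4.30 CPM, again without overlap (limma adjusted p = 0.190). The likelihood ratio test of edgeR called *Nkx2-5* and *Casz1* lower and *Isl1* higher, against 0.732% of all genes.

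Of 30 upstream signals and factors, 26 were listed, with 5 higher and 3 lower at an unadjusted p under 0.05 (5.45% and 6.62% of all genes) and a median of 0.11. *Nkx2-5*, *Isl1* and *Smad4* are counted here and among the partners. *Bmp2* and *Bmp4*, the ligands that induce *Tbx2* and *Tbx3* in the OFT and atrioventricular canal, had log2 fold changes of 0.02 and 0.03 (limma adjusted p = 0.948 and 0.946), with overlapping groups. *Bmp7* had 135.9 ± 3.56 CPM in control-labelled and 108.6 ± 10.01 CPM in mutant-labelled pools (SD, n = 4 each), without overlap (limma adjusted p = 0.203).

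The programme of *Tbx1* in the second heart field and pharyngeal arches had 26 of 35 genes listed, of which 4 were higher and 3 lower at an unadjusted p under 0.05 (all genes: 5.45% and 6.62%), with a median of 0.0039. *Isl1*, the marker of second heart field progenitors and a member of 4 of the lists, was at 25.7, 26.8, 33.0 and 31.1 CPM in control-labelled replicates 1 to 4, and the mutant-labelled ones gave 59.2, 40.7, 43.4 and 41.4 CPM. All 4 mutant-labelled libraries were above every control, and the log2 fold change was 0.64 (SE 0.12, limma adjusted p = 0.142, exact permutation p = 0.0286). Mutant-labelled replicate 1 was highest for *Isl1* as for *Tbx1*. *Eya4*, a transcriptional co-activator and phosphatase, had 9.32 ± 2.59 and 16.9 ± 2.53 CPM (SD, n = 4 each, limma adjusted p = 0.190), again without overlap, and the likelihood ratio test of edgeR called both genes higher. *Fgf10*, a ligand made by the second heart field, had 3.50 ± 1.176 and 3.98 ± 0.592 CPM (limma adjusted p = 0.700), and *Fgf8*, the classical target of *Tbx1*, was not listed. The second heart field markers, 7 of 12 listed, summed to 118 to 145 CPM in control-labelled and 140 to 163 CPM in mutant-labelled libraries. *Isl1*, with means of 29.2 and 46.2 CPM, is 1 of the 7, so the sum is not separate from its values. The part of these markers in the values of *Tbx1* was not tested.

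The OFT, atrioventricular canal and conduction genes that go with *Tbx2* and *Tbx3* had 18 of 20 listed, with 3 higher and 0 lower at an unadjusted p under 0.05, where all genes gave 5.45% and 6.62%, and a median of 0.07. The 3 were *Rspo3*, a Wnt agonist, with 66.4 ± 10.4 and 83.5 ± 6.33 CPM, *Cacna1g*, a T-type calcium channel of pacemaker cells, with 19.6 ± 3.12 and 26.3 ± 5.45 CPM, and *Id2*, with 203.1 ± 17.3 and 226.8 ± 7.19 CPM (SD, n = 4 each, limma adjusted p = 0.284, 0.331 and 0.402). For each of them 3 of 4 mutant-labelled libraries lay above the highest control. *Id2* is also in the list of chamber genes.

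Beside *Tbx18*, 21 of 23 epicardial and sinus venosus genes were listed, with 2 higher and 1 lower at an unadjusted p under 0.05, close to the 12.1% of all genes, and a median of 0.12. *Isl1* is 1 of the 2. *Wt1*, a transcription factor of the epicardium, had 35.4 ± 2.76 and 40.8 ± 7.98 CPM (SD, n = 4 each, limma adjusted p = 0.532) and was highest, at 52.4 CPM, in mutant-labelled replicate 2, as *Tbx18* was. The extracellular sulfatase gene *Sulf1* had 124 ± 13.8 and 171.9 ± 43.5 CPM (limma adjusted p = 0.292), and the mesothelial *Msln* 4.64 ± 1.13 and 2.96 ± 1.02 CPM (limma adjusted p = 0.380). Of the rest of the T-box family 2 of 11 genes were listed, *Tbx4* and *Mga*, the latter with 97.2 ± 9.10 and 104.9 ± 14.5 CPM (limma adjusted p = 0.663).

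**Figure D5:**
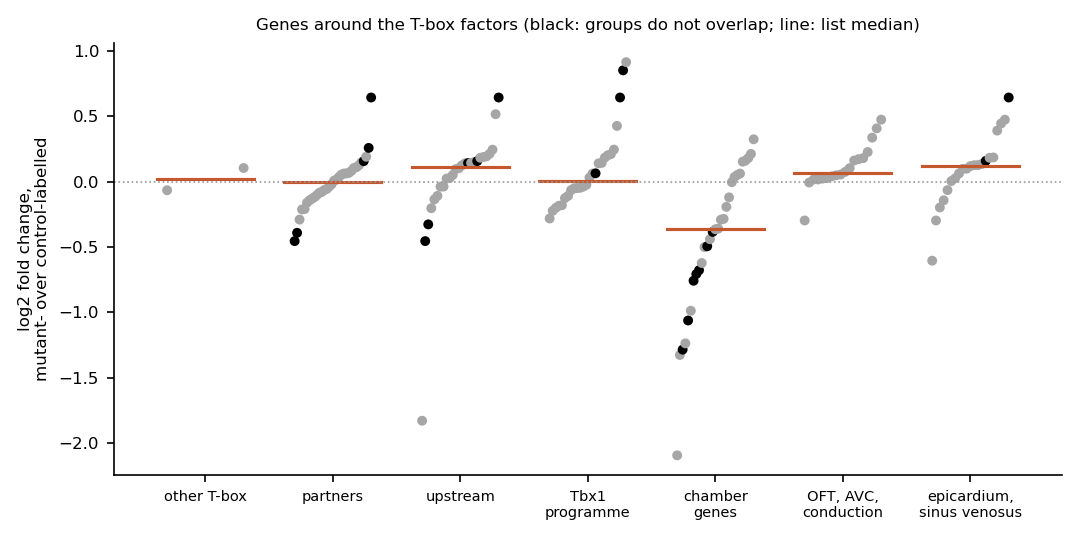
Log2 fold change, mutant-labelled over control-labelled (vertical axis), of each listed gene in the 7 lists of genes around the T-box factors, 1 point per gene, with the list's median as an orange line and black points for genes whose groups do not overlap (7.1% of all genes). The chamber genes have the lowest median, -0.36, and the medians of the other 6 lists lie between -0.01 and 0.12.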

How the data were processed

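RNA-seq was done on 8 libraries of E11.5 OFT, 4 control-labelled and 4 mutant-labelled, and all 8 entered every comparison. By the labels and the study's methods, the authors trimmed adapters (cutadapt), counted with RSEM against GRCm38 and normalised in edgeR. The deposited values were CPM scaled by TMM factors, 1 column per library, with 0 columns left out. Every listed gene reached 1 CPM in at least 4 libraries. All values of each column were whole multiples of 1 constant within 0.01 of a read, and read numbers were recovered from it.

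Differential expression was tested with limma 3.58.1 (lmFit, eBayes with trend) under R 4.3.3, applied to log2(CPM + 0.5). P-values were adjusted by Benjamini-Hochberg over all 14608 genes, with a threshold of 0.05. Fold changes are on that scale, which understates those of low genes. Exact permutation tests were two-sided and unadjusted. Alternatives were other pseudocounts, a filter on low values, no TMM, median-of-ratios scaling, edgeR 4.0.16, DESeq2 1.42.0, a GC correction, a replicate block and the omission of each library. The fitting was tested on simulated data.

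Replicates are samples named as such in the labels, and p-values measure the spread between these pools. Replicate numbers did not pair the libraries.

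The T-box genes and all gene lists were chosen with earlier results of these data known. Other genes were named by rule: the mutated genes, the 3 closest profiles and nearest listed neighbours of each member, the 3 smallest p of each list, and fixed companions. Gene models came from GENCODE for GRCm38, where 14594 of 14608 identifiers were found. A few items that these rules select are not reported here.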

Additional observations from a re-analysis of the deposited data

Results flagged for a closer look

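In 118 groups of 4 libraries tested for a single value far from the rest, 4 had a highest or lowest library whose gap to the nearest of the others, divided by the range of the group, was above Dixon's 95% critical value for 4 samples. Chance alone puts about 1 in 20 groups there. None of the 6 T-box genes was among them. *Nkx2-5* was lowest at 65.2 CPM in mutant-labelled replicate 2, with a gap of 0.937 of the range. *Gata4* was highest at 420.2 CPM in control-labelled replicate 2 (0.839 of the range), and *Isl1* was highest at 59.2 CPM in mutant-labelled replicate 1 (0.854). *Myo16*, whose profile was among the closest to *Tbx5*, was highest at 22.3 CPM in control-labelled replicate 1 (0.936).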

How the results depend on the processing

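No T-box gene was called at an adjusted p of 0.05 under any alternative. Outside DESeq2 and the likelihood ratio fit, though, each alternative called 0 genes in all. The settings that called 0 genes therefore do not set the T-box genes apart from other genes. Of the 6, *Tbx1*, *Tbx2*, *Tbx3* and *Tbx5* kept the sign of their log2 fold change in every alternative run (18 for *Tbx1*, which the filter at a mean of 5 CPM removed, and 19 for the others). *Tbx18* turned to -0.0623 without mutant-labelled replicate 2, and *Tbx20* to -0.0035 with the GC correction and to -0.0035 with the replicate block and GC correction together. The likelihood ratio test of edgeR and DESeq2 called genes where limma called 0: 3 and 3 of the partners, 3 and 3 of the upstream factors, 2 and 2 of the programme of *Tbx1*, 5 and 7 of the chamber genes, and 1 and 1 of the epicardial and sinus venosus genes. These counts share genes: in the likelihood ratio test *Isl1* is called in 4 of the lists and *Nkx2-5* in 2. Over all genes they called 107 and 192. With 1 library left out at a time, the log2 fold change ranged from 0.42 to 0.72 for *Tbx1*, 0.01 to 0.22 for *Tbx2*, 0.09 to 0.43 for *Tbx3*, -0.67 to -0.23 for *Tbx5*, -0.06 to 0.24 for *Tbx18* and 0.02 to 0.15 for *Tbx20*. Per kb of the longest transcript in place of joined exons, the levels were 69.8 for *Tbx20*, 2.52 for *Tbx3* and 1.25 for *Tbx1*, in the same order.

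Same-numbered libraries did not deviate together (correlations from -0.185 to 0.0349), so the numbers were not taken as pairs, although the series text speaks of pairs. The study's methods use that word for OFT pooled within a genotype. With the replicate block, *Tbx5* had a limma adjusted p of 0.510 and *Tbx1* of 0.455. Their unadjusted limma p was lower with the block, 0.0300 against 0.0815 for *Tbx5* and 0.0123 against 0.0316 for *Tbx1*. For *Tbx2*, *Tbx3*, *Tbx18* and *Tbx20* the unadjusted limma p with the block was 0.2325 or more. With block and GC correction together it was 0.0451 for *Tbx2*, 0.00267 for *Tbx1* and 0.0261 for *Tbx5*. Their limma adjusted p was then 0.477, 0.262 and 0.422, and the unadjusted p of the other members was 0.1125 or more. Under the block alone, 0 genes were called among the members and over all genes, and genes at an unadjusted p under 0.05 went from 1763 to 1304. Depth limits *Tbx1* most, with 34 reads in its lowest library.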
